A study of Mus musculus with 8 samples.

Results

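Prdm1, Irf4, Batf, Maf, Gata3, Nfil3, Rel, Relb and Pparg encode transcription factors tied to the effector state of regulatory T cells (Treg cells), and Il1rl1 encodes ST2, the IL-33 receptor that effector Treg cells of tissues carry. These 10 genes, out of 49212 counted, were taken by name as a set. Treg cells are CD4 T cells that hold immune responses in check and depend on the factor Foxp3. On activation they take on an effector state, in which IRF4 with its AP-1 partner BATF act early after antigen receptor signals and BLIMP1, the product of Prdm1, is switched on and represses genes of resting and follicular lymphocytes. Effector Treg cells of tissues and tumors carry ST2, depend on GATA3 and PPARγ at several sites, and use the NF-kB subunits c-Rel and RelB downstream of antigen and costimulatory receptors.

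RNA was sequenced from Treg cells of C57BL/6 mice that bore B16.OVA tumors, a mouse melanoma line that makes the antigen ovalbumin, injected under the skin on day 0. All mice were immunized into the peritoneum with the hapten conjugate NP-OVA in complete Freund's adjuvant on day 0 and in incomplete Freund's adjuvant on day 7. Mice labelled KO carried Prdm1fl/flFoxP3YFP-Cre, in which Cre driven by Foxp3 deletes floxed Prdm1 sequence in cells that make Foxp3, and mice labelled WT carried FoxP3YFP-Cre, so the reporter and Cre allele was present in both. CD45+CD44+YFP+CD4+CD3+ cells were sorted from spleen and tumor when tumors measured at most 1.5 cm3, which gave 4 groups of 2 libraries: KO spleen, WT spleen, KO tumor and WT tumor. Splenocytes were enriched for CD4 cells with beads before the sort and tumor cells were not. By the paper's methods, tumors were also digested with enzymes and run on a density gradient, while spleens were mashed. Tissue and these steps cannot be told apart. The labels give neither the age of the mice nor whether a library held cells of a single mouse or a pool.

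Total counts in genes were 43903859 and 35076472 in the KO spleen libraries, 30539772 and 28269666 in the WT spleen libraries, 35318365 and 27834676 in the KO tumor libraries, and 29724913 and 30854014 in the WT tumor libraries. A count of 0 allows a level of up to 3 counts, which was 0.0644 CPM in the deepest library and 0.112 CPM in the shallowest, for counting error alone. CPM are counts per 1000000 of the library total scaled by TMM, edgeR's correction for differences in composition. Replicates differed beyond sampling noise, since the chi-square per degree of freedom between the 2 libraries of a group was 37.2 in KO spleen, 315.3 in WT spleen, 344.4 in KO tumor and 112.6 in WT tumor. WT spleen and KO tumor thus held the least alike pairs. Below, values are given for libraries 1 and 2 of each group in that order, and the number of a library does not show that libraries of different groups came from the same mice.

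The label of the sorted cells was checked against markers of the cell types that the gate or the tissue could hold. The gene named as the most abundant of a list is the one with the highest mean CPM over the 8 libraries. In most lists another gene led in some libraries. The 7 Treg identity genes summed to 2217 and 2381 CPM in WT spleen, 1527 and 1670.2 CPM in KO spleen, 6572 and 9144 CPM in WT tumor, and 796.1 and 1388.3 CPM in KO tumor, with Ctla4 the most abundant over the 8 libraries and Tnfrsf18 above it in all 4 spleen libraries. Foxp3 itself stood at 69.6 and 58.1 CPM in WT spleen, 43.0 and 56.4 CPM in KO spleen, 25.5 and 60.4 CPM in WT tumor, and 10.2 and 2.99 CPM in KO tumor. Both KO tumor libraries thus lay below every other library in the Treg sum and in Foxp3, the gene whose reporter defined the sort. The 3 CD4 T cell genes, with Cd4 the most abundant, summed to 985.1 and 487.5 CPM in WT spleen, 1160 and 999.8 CPM in KO spleen, 839.1 and 1167 CPM in WT tumor, and 187.9 and 83.0 CPM in KO tumor. The 6 T cell genes, with Lck the most abundant, summed to 6522 and 7406 CPM in WT spleen, 6004 and 5620.4 CPM in KO spleen, 5564 and 6875 CPM in WT tumor, and 1406 and 4889 CPM in KO tumor. Cd4, which the gate required, was thus low in both KO tumor libraries, and genes shared by all T cells were lowest in KO tumor 1. In bulk RNA, fewer cells of a type and less RNA per cell cannot be told apart.

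Genes of other cells were also measured, and their sums varied within groups as well as between tissues. The 8 macrophage genes, with Lyz2 the most abundant over the 8 libraries and Csf1r or C1qb leading in the spleen ones, summed to 383.2 and 1584 CPM in WT spleen, 262.0 and 702.4 CPM in KO spleen, 2909.7 and 455.3 CPM in WT tumor, and 14327 and 1599 CPM in KO tumor. The 2 CD8 T cell genes, with Cd8a the most abundant over the 8 libraries and Cd8b1 above it outside KO tumor, summed to 24.3 and 30.7 CPM in WT spleen, 15.03 and 17.5 CPM in KO spleen, 148.0 and 48.2 CPM in WT tumor, and 405.8 and 2220.2 CPM in KO tumor. The 6 melanoma genes, with Tyrp1 the most abundant over the 8 libraries, Pmel leading in the spleen ones and Tyr, Tyrp1 and Dct at 0 in some spleen libraries, summed to 7.63 and 9.27 CPM in WT spleen, 4.79 and 6.59 CPM in KO spleen, 1958 and 1064 CPM in WT tumor, and 3027 and 786.1 CPM in KO tumor. KO tumor 1 thus stood apart by macrophage genes and KO tumor 2 by CD8 genes, and melanoma genes were high in each tumor library. The 5 NK cell genes, led by Fcer1g and with Ncr1 and Klra8 at 0 in some libraries, summed to 89.0 and 666.6 CPM in WT spleen, 60.9 and 126.0 CPM in KO spleen, 460.3 and 99.7 CPM in WT tumor, and 2023 and 343.6 CPM in KO tumor. The 5 neutrophil genes, led by S100a8 and with S100a8, S100a9, Ly6g and Mpo at 0 in some libraries, summed to 0.748 and 19.4 CPM in WT spleen, 5.32 and 10.03 CPM in KO spleen, 61.8 and 4.55 CPM in WT tumor, and 325.9 and 176.5 CPM in KO tumor. The 6 dendritic cell genes, led by Zbtb46 and with Clec9a at 0 in some libraries, summed to 13.1 and 11.2 CPM in WT spleen, 12.7 and 16.1 CPM in KO spleen, 79.2 and 43.6 CPM in WT tumor, and 133.0 and 58.4 CPM in KO tumor. The NK sum is mostly Fcer1g and Tyrobp, which myeloid cells also make, at 373.9 and 281.4 CPM in WT spleen 2 and 1254 and 733.5 CPM in KO tumor 1. Ncr1, which marks NK cells more closely, was at 0 in all 4 spleen libraries and at 13.4 CPM in KO tumor 1. For each of these myeloid and NK sums, KO tumor 1 was the highest of the 8 libraries.

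Lists for the remaining cell types were lower or varied less. The 4 plasma cell genes, led by Xbp1, which T cells also make, summed to 192.1 and 198.2 CPM in WT spleen, 231.4 and 230.03 CPM in KO spleen, 359.2 and 247.9 CPM in WT tumor, and 456.1 and 230.03 CPM in KO tumor. The 7 genes of mast cells and group 2 innate lymphoid cells, other carriers of Gata3 and Il1rl1, summed to 8.74 and 10.7 CPM in WT spleen, 14.3 and 11.1 CPM in KO spleen, 10.8 and 9.11 CPM in WT tumor, and 28.6 and 22.5 CPM in KO tumor. In that list Kit was the most abundant over the 8 libraries, Il4 led in both WT spleen libraries and KO spleen 1, Mcpt4 was at 0 in all 8 libraries, and Il5, Il13 and Gata2 were at 0 in some. The 5 fibroblast genes, led by Col1a1 and with Col1a2, Col3a1, Pdgfra and Dcn at 0 in some libraries, summed to 1.53 and 0.535 CPM in WT spleen, 0.515 and 1.17 CPM in KO spleen, 4.74 and 16.1 CPM in WT tumor, and 1.84 and 0.561 CPM in KO tumor. The part of any of these cell types in the results below was not tested.

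**Figure D1:**
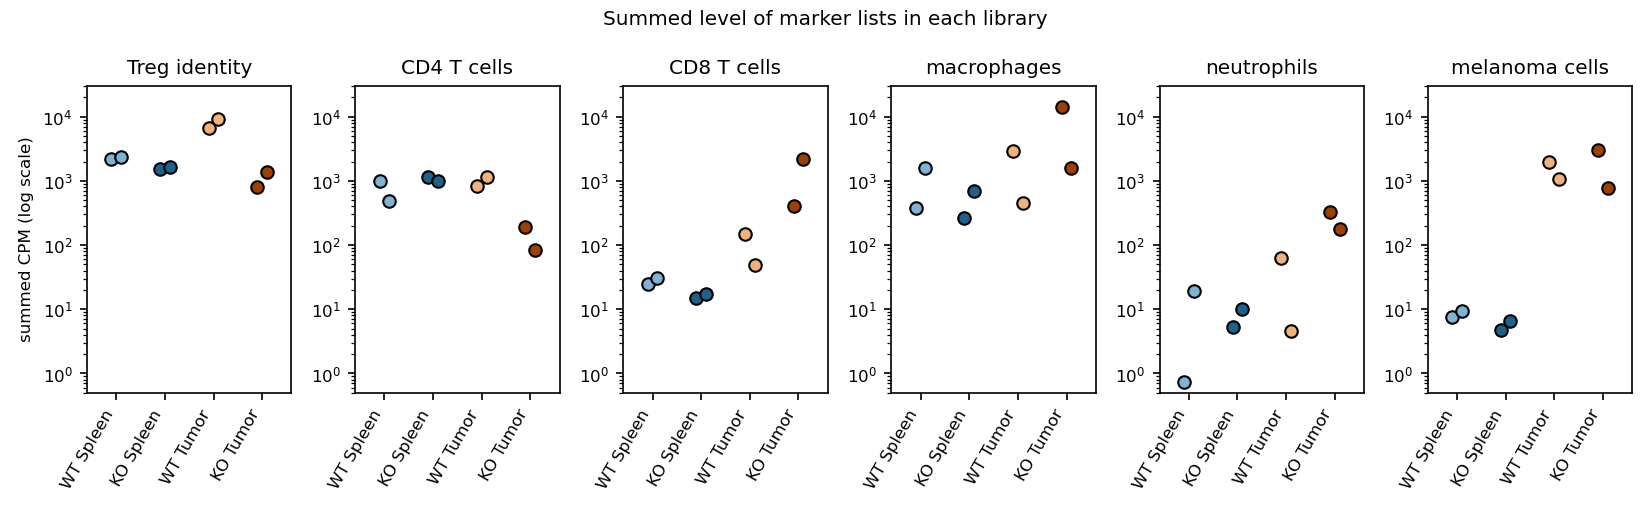
Summed CPM (log axis) of Treg identity, CD4 T cell, CD8 T cell, macrophage, neutrophil and melanoma genes, with 1 point per library in each of the 4 groups. Treg identity genes are lowest in KO tumor 1 (796.1 CPM) and KO tumor 2 (1388.3 CPM), and macrophage genes are highest in KO tumor 1 (14327 CPM).

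Prdm1 encodes the zinc finger repressor BLIMP1 and is the gene that the floxed allele targets. It was counted over 5492 exonic bases in 9 blocks between 44437177 and 44528501 on the minus strand of chromosome 10 (GRCm38). Its level was 54.0 and 21.0 CPM in WT spleen, 40.6 and 53.4 CPM in KO spleen, 108.4 and 192.0 CPM in WT tumor, and 90.7 and 75.1 CPM in KO tumor. The spleen groups overlapped, and both KO tumor libraries lay below both WT tumor libraries while remaining above all 4 spleen libraries. Group means were 37.5 ± 23.4 CPM (SD, n = 2) in WT spleen, 47.0 ± 9.03 CPM (SD, n = 2) in KO spleen, 150.2 ± 59.1 CPM (SD, n = 2) in WT tumor, and 82.9 ± 11.04 CPM (SD, n = 2) in KO tumor. The count of Prdm1 sums reads over all its exons and does not resolve the deleted ones, so a transcript lacking them is counted with the intact one. The labels KO and WT are therefore used as given, since the gene-level count in spleen does not separate them. KO against WT, Prdm1 differed by a log2 fold change of 0.32 in spleen (SE 0.49, edgeR adjusted p = 0.894) and -0.86 in tumor (SE 0.37, edgeR adjusted p = 0.554), so it was called in neither tissue. Without each library in turn, the tumor value ran from -1.22 (without WT tumor 1) to -0.40 (without WT tumor 2). Tumor against spleen, it differed by 2.01 in WT cells (SE 0.55, edgeR adjusted p = 0.0628, DESeq2 adjusted p = 0.00733) and by 0.83 in KO cells (SE 0.26, edgeR adjusted p = 0.112). The WT difference passed DESeq2 and missed edgeR, which called it with no filter (2.05, adjusted p = 0.00234) and when replicate number entered as a block (2.10, adjusted p = 0.0241). Over all genes, no filter gave 1922 calls and the block 1463, against 981 with the filter and no block. The tumor against spleen difference in KO cells less that in WT cells was not called (-1.18, SE 0.68, edgeR adjusted p = 0.765).

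IRF4 and BATF bind composite AP-1 and IRF sites together and start the effector program after antigen receptor signals. Irf4, which encodes the first of these partners, stood at 49.2 and 25.1 CPM in WT spleen, 64.7 and 55.2 CPM in KO spleen, 73.8 and 69.1 CPM in WT tumor, and 56.1 and 80.0 CPM in KO tumor. Its level was higher in both KO spleen libraries than in both WT spleen libraries, and the tumor groups overlapped, with KO tumor 1 lowest and KO tumor 2 highest. Its log2 fold change, KO against WT, was 0.69 in spleen and -0.07 in tumor, and tumor against spleen in WT cells it was 0.95 (SE 0.46, edgeR adjusted p = 0.284). Batf, which encodes the AP-1 partner, stood at 206.8 and 246.7 CPM in WT spleen, 212.0 and 173.6 CPM in KO spleen, 173.5 and 195.3 CPM in WT tumor, and 57.7 and 103.7 CPM in KO tumor. The 2 KO tumor libraries were the lowest of the 8, and the other 6 lay between 173.5 and 246.7 CPM. In tumor, Batf differed KO against WT by -1.20 (SE 0.38, edgeR adjusted p = 0.398, DESeq2 adjusted p = 0.207), and tumor against spleen in KO cells by -1.25 (SE 0.33, edgeR adjusted p = 0.0899, DESeq2 adjusted p = 0.0388). Neither difference passed edgeR, and the second passed DESeq2.

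MAF, GATA3 and ST2 mark effector Treg cells of tissues: MAF drives Il10, GATA3 maintains Treg cells at barrier sites and acts on the ST2 gene, and ST2 receives IL-33. Maf stood at 130.7 and 206.8 CPM in WT spleen, 154.4 and 152.5 CPM in KO spleen, 119.9 and 217.5 CPM in WT tumor, and 49.2 and 16.1 CPM in KO tumor. Gata3 stood at 263.0 and 213.6 CPM in WT spleen, 224.1 and 217.9 CPM in KO spleen, 213.2 and 476.9 CPM in WT tumor, and 35.9 and 69.0 CPM in KO tumor. Il1rl1 stood at 90.7 and 48.4 CPM in WT spleen, 42.0 and 43.7 CPM in KO spleen, 61.8 and 101.8 CPM in WT tumor, and 16.9 and 8.0 CPM in KO tumor. For each of these 3 genes both KO tumor libraries were the lowest of the 8 and the WT tumor libraries overlapped the spleen libraries. The spleen groups overlapped for Maf and Gata3, and for Il1rl1 both KO spleen libraries lay below both WT ones.

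In tumor, Gata3 differed between KO and WT by a log2 fold change of -2.72 (SE 0.56, edgeR adjusted p = 0.252, DESeq2 adjusted p = 0.000769). Il1rl1 differed there by -2.72 (SE 0.51, edgeR adjusted p = 0.225, DESeq2 adjusted p = 0.000349), and Maf by -2.38 (SE 0.64, edgeR adjusted p = 0.319, DESeq2 adjusted p = 0.0150). All 3 passed DESeq2 and none passed edgeR with the filter on low counts and no block. EdgeR called all 3 with no filter (adjusted p = 0.00025 for Gata3, 0.000315 for Il1rl1 and 0.00154 for Maf) and when replicate number entered as a block (adjusted p = 0.00890, 0.0195 and 0.0468), a pairing that the labels do not give. Over all genes, no filter gave 1072 calls and the block 728, against 0 with the filter and no block. Without KO tumor 1, the library rich in macrophage genes, the values were -2.32 for Gata3, -3.35 for Il1rl1 and -3.39 for Maf. Without KO tumor 2, the library rich in CD8 genes, they were -3.28, -2.29 and -1.80. Without WT tumor 2, where all 3 genes were higher than in WT tumor 1, they were -2.03, -2.33 and -1.89, and without WT tumor 1 -3.19, -3.04 and -2.75. Beside these differences the Treg identity sum was 796.1 and 1388.3 CPM in KO tumor against 6572 and 9144 CPM in WT tumor, and its part in the result was not tested. In spleen the same contrast was -0.11 for Gata3, -0.14 for Maf and -0.70 for Il1rl1, with edgeR adjusted p from 0.878 to 0.961 over the 10 genes. Without each library in turn, the spleen value of Il1rl1 ran from -1.08 (without WT spleen 2) to -0.12 (without WT spleen 1). The KO against WT difference in tumor less that in spleen was -2.61 for Gata3 (SE 0.66, edgeR adjusted p = 0.322, DESeq2 adjusted p = 0.0247), -2.23 for Maf (SE 0.76, edgeR adjusted p = 0.494) and -2.02 for Il1rl1 (SE 0.67, edgeR adjusted p = 0.484). Of these, Gata3 passed DESeq2, none passed edgeR with the filter, and all 3 passed edgeR with no filter (adjusted p = 0.00151, 0.0102 and 0.0415). For this interaction edgeR called 752 genes in all with no filter, against 0 with the filter.

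A ratio of counts within a library sets these genes beside Cd4, Cd3e and Foxp3, whose products or reporter the sort also selected. Gata3 counts per Cd4 count were 0.295 and 0.557 in WT spleen, 0.222 and 0.249 in KO spleen, 0.264 and 0.439 in WT tumor, and 0.243 and 1.04 in KO tumor. Il1rl1 counts per Cd4 count were 0.102 and 0.126 in WT spleen, 0.0417 and 0.0499 in KO spleen, 0.0766 and 0.0937 in WT tumor, and 0.114 and 0.121 in KO tumor. Maf counts per Cd4 count were 0.147 and 0.539 in WT spleen, 0.153 and 0.174 in KO spleen, 0.149 and 0.200 in WT tumor, and 0.333 and 0.244 in KO tumor. Relative to Cd4, the KO tumor libraries were thus not below the WT tumor libraries for Il1rl1 or Maf and overlapped them for Gata3. Gata3 counts per Cd3e count were 0.182 and 0.151 in WT spleen, 0.172 and 0.174 in KO spleen, 0.230 and 0.334 in WT tumor, and 0.114 and 0.0675 in KO tumor. Il1rl1 counts per Cd3e count were 0.0628 and 0.0341 in WT spleen, 0.0323 and 0.0349 in KO spleen, 0.0667 and 0.0713 in WT tumor, and 0.0536 and 0.00783 in KO tumor. Maf counts per Cd3e count were 0.0905 and 0.146 in WT spleen, 0.119 and 0.122 in KO spleen, 0.129 and 0.152 in WT tumor, and 0.156 and 0.0158 in KO tumor. Relative to Cd3e, both KO tumor libraries were thus below both WT tumor libraries for Gata3 and Il1rl1, and the groups overlapped for Maf. Gata3 counts per Foxp3 count were 3.78 and 3.68 in WT spleen, 5.21 and 3.86 in KO spleen, 8.38 and 7.89 in WT tumor, and 3.52 and 23.1 in KO tumor. KO tumor 2, where Foxp3 was lowest, had the highest of these ratios and KO tumor 1 the lowest. Il1rl1 counts per Foxp3 count were 2.43 and 1.68 in WT tumor and 1.66 and 2.67 in KO tumor, and Maf counts per Foxp3 count were 4.71 and 3.6 in WT tumor and 4.81 and 5.39 in KO tumor. The tumor groups thus overlapped for Gata3 and Il1rl1 relative to Foxp3, and both KO libraries were above both WT ones for Maf. Such ratios depend on both genes, differ with the gene in the denominator and were not tested.

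NFIL3, a basic leucine zipper repressor, and PPARγ, a nuclear receptor of Treg cells in fat, act in tissue Treg cells but are also made by other lymphoid and myeloid cells. Nfil3 stood at 43.8 and 26.0 CPM in WT spleen, 35.1 and 28.1 CPM in KO spleen, 117.1 and 68.2 CPM in WT tumor, and 335.1 and 158.0 CPM in KO tumor. The KO tumor libraries were the highest of the 8, the WT tumor libraries came next, and the spleen groups overlapped. In tumor its log2 fold change, KO against WT, was 1.41 (SE 0.49, edgeR adjusted p = 0.448, DESeq2 adjusted p = 0.178) and 0.77 without KO tumor 1, whose macrophage sum was 14327 CPM. Tumor against spleen, Nfil3 differed by 1.42 in WT cells (SE 0.48, edgeR adjusted p = 0.126, DESeq2 adjusted p = 0.0563) and by 2.99 in KO cells (SE 0.46, edgeR adjusted p = 0.0571, DESeq2 adjusted p = 2.1e-07). The KO value passed DESeq2 and missed edgeR over the 4 libraries, and it was 2.32 without KO tumor 1 and 3.45 without KO tumor 2. Pparg, the lowest of the 10 genes per length in both spleen groups, stood at 9.46 and 6.88 CPM in WT spleen, 4.57 and 4.99 CPM in KO spleen, 21.2 and 18.1 CPM in WT tumor, and 39.5 and 5.46 CPM in KO tumor. Both KO spleen libraries lay below both WT spleen libraries, and KO tumor 1 was above the WT tumor libraries while KO tumor 2 was near the spleen. In tumor, Pparg differed between KO and WT by 0.19 (SE 0.88), and by -1.85 without KO tumor 1. Tumor against spleen it differed by 1.27 in WT cells (SE 0.51, edgeR adjusted p = 0.190, DESeq2 adjusted p = 0.0923) and by 2.27 in KO cells (SE 0.97, edgeR adjusted p = 0.195, DESeq2 adjusted p = 0.0424). The KO value rests on KO tumor 1, since it was 0.19 without that library and 3.09 without KO tumor 2.

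Rel and Relb encode the NF-kB subunits c-Rel, of the canonical pathway that antigen receptors engage, and RelB, the partner of p52 in the noncanonical pathway. Rel stood at 78.9 and 47.2 CPM in WT spleen, 57.1 and 46.7 CPM in KO spleen, 277.5 and 184.9 CPM in WT tumor, and 449.8 and 131.9 CPM in KO tumor. Each tumor library lay above all 4 spleen libraries, and the KO tumor libraries spread on either side of the WT ones. Rel rose from spleen to tumor in WT cells by a log2 fold change of 1.88 (SE 0.48, edgeR adjusted p = 0.0472, DESeq2 adjusted p = 0.0036), with both WT tumor libraries above both WT spleen libraries. With the libraries of each comparison alone, the filter on low counts and no block, it was the 1 gene of the 10 that edgeR called. The call was lost without WT spleen 2, WT tumor 1 or WT tumor 2, over a range from 1.57 to 2.31 without each library in turn, and in edgeR over all 8 libraries (1.87, adjusted p = 0.107). In KO cells the tumor against spleen difference was 2.52 (SE 0.65, edgeR adjusted p = 0.0849, DESeq2 adjusted p = 0.00102), with 1.34 without KO tumor 1 and 3.16 without KO tumor 2. KO against WT in tumor it was 0.33 (SE 0.62), or -0.81 without KO tumor 1. Relb stood at 108.5 and 73.0 CPM in WT spleen, 92.6 and 80.9 CPM in KO spleen, 73.3 and 89.9 CPM in WT tumor, and 83.5 and 55.5 CPM in KO tumor. Its groups overlapped in all 4 pairwise comparisons, with log2 fold changes from -0.30 to -0.07. Relb counts per Rel count, both per length, were 2.64 and 2.97 in WT spleen, 3.11 and 3.33 in KO spleen, 0.508 and 0.935 in WT tumor, and 0.357 and 0.809 in KO tumor. Relb thus exceeded Rel in every spleen library and was below it in every tumor library.

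**Figure D2:**
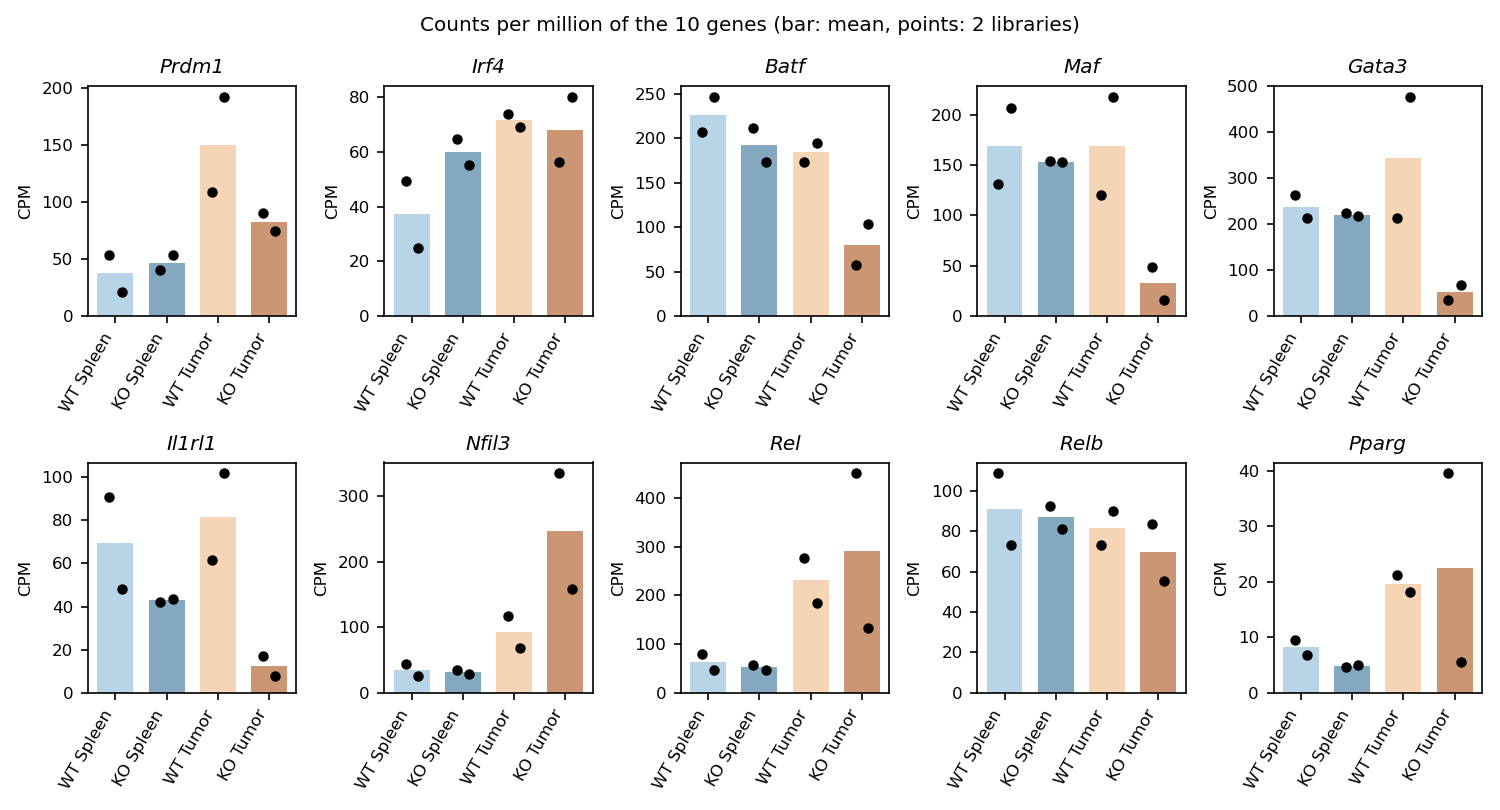
CPM of the 10 genes on linear axes, with 1 point per library and bars for the means of the 4 groups. Gata3 was at 35.9 and 69.0 CPM in KO tumor and between 213.2 and 476.9 CPM in the other 6 libraries.

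Levels can be compared between genes per kilobase of exon. Batf, the shortest of the genes with 955 exonic bases, was the highest of the 10 in WT spleen (237.4 ± 29.5 CPM per kb, SD, n = 2), KO spleen (201.9 ± 28.5 CPM per kb, SD, n = 2) and WT tumor (193.1 ± 16.2 CPM per kb, SD, n = 2). Gata3 came second in these 3 groups, at 59.9 ± 8.79, 55.5 ± 1.10 and 86.7 ± 46.9 CPM per kb (SD, n = 2). In KO tumor the order was different: Nfil3 led with 121.7 ± 61.8 CPM per kb (SD, n = 2) and overlapped Batf at 84.5 ± 34.0 CPM per kb (SD, n = 2), and Gata3 stood seventh at 13.2 ± 5.88 CPM per kb (SD, n = 2). Il1rl1 was the lowest of the 10 in KO tumor at 1.81 ± 0.914 CPM per kb (SD, n = 2), and Pparg was the lowest in WT spleen at 2.77 ± 0.616, in KO spleen at 1.62 ± 0.10 and in WT tumor at 6.67 ± 0.737 CPM per kb (SD, n = 2). Prdm1 was ninth in WT spleen at 6.83 ± 4.25 CPM per kb and stood in WT tumor behind Batf, Gata3, Nfil3 and Rel, at 27.3 ± 10.8 CPM per kb (SD, n = 2). In WT tumor, neighbours in the order from Gata3 through Nfil3, Rel, Prdm1, Relb, Maf and Irf4 to Il1rl1 did not differ beyond their spread. Prdm1 counts per Irf4 count, both per length, were 0.943 and 0.719 in WT spleen, 0.539 and 0.831 in KO spleen, 1.26 and 2.38 in WT tumor, and 1.39 and 0.806 in KO tumor. Prdm1 thus exceeded Irf4 in both WT tumor libraries and in KO tumor 1, and was below it in the other 5 libraries.

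The comparison of KO with WT tumor addresses sorted cells of the tumor by the genotype on the label, and the counts do not themselves show the loss of Prdm1. A gene was called when its Benjamini-Hochberg adjusted p was under 0.05 and its log2 fold change was over 1 in size. EdgeR called 0 of the 10 genes and 0% of the 15935 genes tested, with 1573 of those at an unadjusted p under 0.05, while DESeq2 called 3 of the 10, all lower in KO, and 4.68% of 16264 genes. Both KO libraries lay below both WT libraries for 5 of the 10 genes (Prdm1, Batf, Maf, Gata3 and Il1rl1), against 19.4% of the genes tested, and above them for 1 (Nfil3), against 18%. The 10 genes had a median log2 fold change of -0.55, against 0.04 over all genes tested, and 5 of them had an unadjusted p under 0.05 in edgeR. DESeq2 called 566 genes higher and 195 lower in KO, and Maf, Gata3 and Il1rl1 were among the 195.

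The comparison of KO with WT spleen addresses the same for sorted cells outside the tumor. EdgeR called 0 of the 10 genes and 0% of 16583 genes, with 489 of those at an unadjusted p under 0.05, of which 0 were among the 10, and DESeq2 called 0 of the 10 and 0.416% of 18034 genes. Both KO libraries lay above both WT libraries for 1 gene (Irf4), against 16.4% of the genes tested, and below them for 2 (Il1rl1 and Pparg), against 15.7%. The median over the 10 genes was -0.15, against -0.02 over all genes tested. Without WT spleen 1, edgeR called 2 of the 10, Irf4 at 1.32 (adjusted p = 0.00249) and Prdm1 at 1.22 (adjusted p = 0.00698), and 3972 genes in all, while without each other library it called 0 of the 10 and from 21 to 47 genes. Leaving out WT spleen 1 keeps WT spleen 2 alone for WT, where macrophage genes summed to 1584 CPM against 262.0 to 702.4 CPM in the other spleen libraries. Cd4 was at 383.6 CPM there against 874.7 to 1009 CPM, and the top genes by count, 100 in number, held 29.96% of counts against 20.2% to 20.9%. The part of these in the calls was not tested. The difference of the tissues, tested directly over all 8 libraries, gave 0 of the 10 and 0% of 17870 genes by edgeR, with 1399 at an unadjusted p under 0.05. DESeq2 gave 1 of the 10 (Gata3) and 1.85% of 16585 genes. The median of this interaction was -0.86 over the 10 genes and 0.07 over all genes tested.

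Tumor against spleen in WT cells asks which of the genes differ between sorted cells of the tumor and of a lymphoid organ labelled WT. EdgeR called 1 of the 10 genes higher (Rel) and 5.97% of 16427 genes, and DESeq2 called 2 higher (Rel and Prdm1) and 9.91% of 18206 genes. Both tumor libraries lay above both spleen libraries for 5 of the 10 (Prdm1, Irf4, Nfil3, Rel and Pparg), against 25.1% of the genes tested, and below them for 1 (Batf), against 27%. The median was 0.74 over the 10 genes and -0.04 over all genes tested. Without WT spleen 1, edgeR called Prdm1 as well (2.85, adjusted p = 0.0331) and 1401 genes, and without WT spleen 2, WT tumor 1 or WT tumor 2 it called 0 of the 10 and 213, 513 or 1046 genes. Melanoma genes summed to 1958 and 1064 CPM in these tumor libraries against 7.63 and 9.27 CPM in the spleen ones, and macrophage genes to 2909.7 and 455.3 CPM against 383.2 and 1584 CPM, and their part in the result was not tested.

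In cells labelled KO, the same contrast of tissues asks how these genes stand where Prdm1 is targeted. EdgeR called 0 of the 10 genes and 1.35% of 16933 genes, with 7 of the 10 and 5256 of all genes tested at an unadjusted p under 0.05, and DESeq2 called 3 of the 10 higher (Nfil3, Rel and Pparg) and 4 lower (Batf, Maf, Gata3 and Il1rl1), against 19.7% of 19396 genes. The values were -2.07 for Gata3 (edgeR adjusted p = 0.0590, DESeq2 adjusted p = 0.000156), -2.20 for Maf (edgeR adjusted p = 0.0888, DESeq2 adjusted p = 0.00367) and -1.76 for Il1rl1 (edgeR adjusted p = 0.0811, DESeq2 adjusted p = 0.00712). In WT cells these genes stood at 0.53 for Gata3, -0.00 for Maf and 0.24 for Il1rl1, none called by either tool. Both KO tumor libraries lay above both KO spleen libraries for 4 of the 10 (Prdm1, Nfil3, Rel and Pparg), against 30.6% of the genes tested, and below them for 4 (Batf, Maf, Gata3 and Il1rl1), against 32.9%. The median was -0.05 over the 10 genes and 0.01 over all genes tested, since the genes fell on both sides. Without KO tumor 1 edgeR called 5 of the 10 and 3549 genes, without KO tumor 2 it called 7 of the 10 and 4958 genes, and without either KO spleen library it called 0 genes, with a lone library assumed to vary like the other group. EdgeR over all 8 libraries called 4 of the 10 (Maf, Gata3, Nfil3 and Rel), and edgeR with no filter called 6 (those 4, Batf and Il1rl1). Over all genes these settings gave 1743 and 3183 calls, against 228 with the filter and the libraries of this comparison alone. Without KO tumor 1 the values were -1.68 for Gata3, -3.25 for Maf, -2.42 for Il1rl1 and -0.90 for Batf, and without KO tumor 2 they were -2.58, -1.6, -1.3 and -1.70. All 4 kept their direction without either library, with Maf and Il1rl1 larger in size without KO tumor 1 and Gata3 and Batf larger without KO tumor 2. Beside these values, CD8 genes summed to 405.8 and 2220.2 CPM in KO tumor against 15.03 and 17.5 CPM in KO spleen, and macrophage genes to 14327 and 1599 CPM against 262.0 and 702.4 CPM. Melanoma genes summed to 3027 and 786.1 CPM in KO tumor against 4.79 and 6.59 CPM in KO spleen, and CD4 genes to 187.9 and 83.0 CPM against 1160 and 999.8 CPM. Treg identity genes summed to 796.1 and 1388.3 CPM in KO tumor against 1527 and 1670.2 CPM in KO spleen. Their median log2 fold change was -2.17, with 6 of the 7 negative and 1 positive. EdgeR called 2 of these 7 lower and DESeq2 5, against 1.35% and 19.7% of all genes. The part of these lists in the result was not tested. The 4 pairwise comparisons share libraries, so each is given by its own values. Apart from the interaction, fitted over all 8 libraries, no relation between them was computed.

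**Figure D3:**
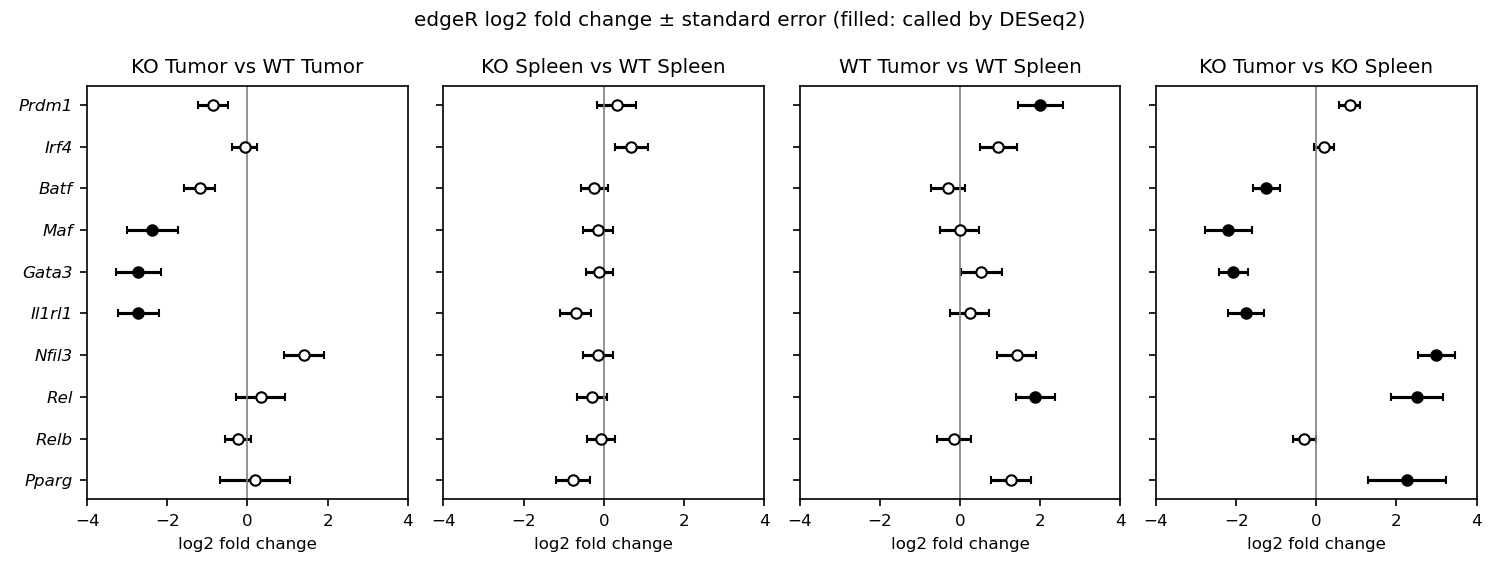
EdgeR log2 fold change (x axis, with bars of 1 SE) of the 10 genes in the 4 pairwise comparisons, with filled points for genes that DESeq2 called. In KO against WT tumor the filled points are Maf (-2.38), Gata3 (-2.72) and Il1rl1 (-2.72), which edgeR did not call with the filter on low counts and no block.

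The partners and relatives of BATF and IRF4 listed here were IRF8, BATF2, BATF3 and the JUN factors that pair with BATF. The FOSL factors and the competing repressors BACH1 and BACH2 were listed as well. Of 10 such genes, edgeR called 3 higher in WT tumor than in WT spleen, Fosl2 (3.81, adjusted p = 0.00201), Junb (1.93, adjusted p = 0.0404) and Irf8 (1.87, adjusted p = 0.0413), and 2 lower, Bach2 (-3.6, adjusted p = 0.00924) and Jund (-2.15, adjusted p = 0.0231), against 5.97% of all genes tested. In KO cells the tissue contrast called Fosl2 (4.45, edgeR adjusted p = 0.0366) and Irf8 (3.45, edgeR adjusted p = 0.0332) higher, against 1.35% of all genes tested. In WT cells AP-1 genes thus moved in both directions with tissue. In KO cells edgeR and DESeq2 called 0 lower and DESeq2 called 6 higher, against 19.7% of all genes. Bach2, which holds effector genes down in resting Treg cells, fell from spleen to tumor in WT cells. Jund stood at 119.6 and 181.7 CPM in WT spleen, 103.8 and 79.0 CPM in KO spleen, 36.4 and 31.4 CPM in WT tumor, and 154.6 and 165.8 CPM in KO tumor. Bach2 stood at 17.6 and 18.9 CPM in WT spleen, 12.3 and 9.43 CPM in KO spleen, 1.01 and 1.99 CPM in WT tumor, and 8.41 and 6.21 CPM in KO tumor. For both genes the WT tumor libraries were the lowest of the 8. Of these 10 genes edgeR called 0 in KO against WT tumor, with 3 at an unadjusted p under 0.05, against 1573 of the 15935 genes tested. DESeq2 called 2 higher, Jund (2.24, edgeR adjusted p = 0.177, DESeq2 adjusted p = 1.7e-05) and Bach2 (2.28, edgeR adjusted p = 0.308, DESeq2 adjusted p = 0.013), against 4.68% of all genes. Irf8 had the next smallest p (0.83, edgeR adjusted p = 0.505), and the list's median was 1.61, against 0.04 over all genes tested. Batf2, Fosl1, Bach1 and Batf3, named after their values were seen, were highest in KO tumor 1, at 31.3, 9.39, 48.4 and 8.66 CPM, against 3.63, 1.27, 13.05 and 2.24 CPM in KO tumor 2. Macrophage genes summed to 14327 CPM in KO tumor 1 and CD8 genes to 2220.2 CPM in KO tumor 2, and their part in the result was not tested. The interaction was 2.96 for Jund and 3.03 for Bach2, called by DESeq2, against 1.85% of all genes, and not by edgeR (adjusted p = 0.177 and 0.259). For Irf8 it was 1.56, called by neither. In spleen neither tool called any of the 9 that were tested, of which 0 were at an unadjusted p under 0.05 in edgeR. Over all genes 489 of 16583 were, and DESeq2 called 0.416%. The smallest p in the list belonged to Irf8 (-0.74), Bach2 (-0.76) and Batf3 (2.33).

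Beside Rel and Relb, 14 other subunits and regulators of NF-kB were listed: the partners p65, p50 and p52, the IkB inhibitors, the IKK kinases, and A20 and TRAF3, which restrain the pathway. EdgeR called 2 of the 14 higher in WT tumor than in WT spleen, Nfkbiz (3.65, adjusted p = 0.00319), which encodes a nuclear IkB protein, and Tnfaip3 (3.38, adjusted p = 0.0101), which encodes A20, against 5.97% of all genes tested. Tnfaip3 was also called higher in KO tumor than in KO spleen (2.92, edgeR adjusted p = 0.0383), where edgeR called 1.35% of all genes tested and DESeq2 called 3 of the 14 and 19.7% of all genes. These genes are induced by NF-kB and restrain or redirect it, and they rose in the tissue contrast in which Rel rose. In that contrast melanoma genes summed to 1958 and 1064 CPM against 7.63 and 9.27 CPM and macrophage genes to 2909.7 and 455.3 CPM against 383.2 and 1584 CPM. Nfkbiz was at 879.0 CPM in KO tumor 1, rich in macrophage genes, and at 237.9 CPM in KO tumor 2, and the part of other cells was not tested. Tnfaip3 stood at 236.4 and 93.6 CPM in WT spleen, 198.7 and 171.5 CPM in KO spleen, 1310.2 and 2118 CPM in WT tumor, and 1599 and 1173 CPM in KO tumor. All 4 tumor libraries lay above all 4 spleen libraries, and the genotypes overlapped within each tissue. KO against WT, edgeR and DESeq2 called 0 of the 14 in tumor, in spleen and in the interaction, with 0 at an unadjusted p under 0.05 in edgeR. Over all genes edgeR called 0% in each, and DESeq2 called 4.68%, 0.416% and 1.85%. At an unadjusted p under 0.05 in edgeR were 1573 of 15935, 489 of 16583 and 1399 of 17870 genes. The smallest p in tumor belonged to Nfkb2 (-0.51), Chuk (0.42) and Nfkbia (-0.51), in spleen to Nfkbia (-0.70), Nfkbiz (-0.47) and Bcl3 (-0.46), and in the interaction to Bcl3 (0.87), Nfkb2 (-0.74) and Ikbkg (-0.69). The medians of the list, KO against WT, were -0.11 in tumor and 0.17 in spleen, against 0.04 and -0.02 over all genes tested.

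ST2 signals with the accessory chain of Il1rap through MYD88, the IRAK kinases and TRAF6, as does the IL-18 receptor, and Treg cells that receive IL-33 make amphiregulin, the product of Areg. Areg stood at 6.07 and 13.7 CPM in WT spleen, 4.36 and 3.57 CPM in KO spleen, 261.7 and 210.8 CPM in WT tumor, and 38.0 and 18.0 CPM in KO tumor. Both KO libraries lay below both WT ones in each tissue, and each tumor library was above every spleen library. Areg rose from spleen to tumor in WT cells (4.57, edgeR adjusted p = 0.0023), the 1 gene of the 9 tested on this list that edgeR called, against 5.97% of all genes tested. Between KO and WT tumor, edgeR called 0 of the 9 tested, with 1 at an unadjusted p under 0.05, against 1573 of the 15935 genes tested. DESeq2 called Areg lower (-3.08, edgeR adjusted p = 0.179, DESeq2 adjusted p = 5.2e-06), against 4.68% of all genes, with Il18r1 (-0.72) and Il1rap (0.63) next by p. The receptor gene Il1rl1 and Areg were thus both lowest within tumor in the KO libraries, in which the Treg identity sum was low as well. Il33, the ligand gene, was low in these sorted cells, from 0 to 0.785 CPM, or from 0 to 21 counts. In spleen neither tool called any of the 9 tested, with 2 at an unadjusted p under 0.05 in edgeR, against 489 of 16583 genes and 0.416% called by DESeq2. The smallest p belonged to Il18r1 (1.46), Areg (-1.33) and Il18rap (0.86). In the interaction edgeR called 0 of 10, with 2 at an unadjusted p under 0.05, against 1399 of 17870 genes. DESeq2 called Il18r1 lower there (-2.18, edgeR adjusted p = 0.317, DESeq2 adjusted p = 0.043), against 1.85% of all genes, with Areg (-1.76) and Irak2 (0.52) next by p. In KO cells, tumor against spleen, edgeR called 0 of 10, with 3 at an unadjusted p under 0.05 against 5256 of the 16933 genes tested, a share near that of all genes. DESeq2 called Areg (2.85) and Irak2 (1.53) higher and Il18r1 (-1.27) lower there, against 19.7% of all genes.

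Effector molecules and receptors of tissue Treg cells, 22 genes, were described beside the factors. EdgeR called 9 of the 22 higher and 0 lower in WT tumor than in WT spleen, among them Gzmb (4.69, adjusted p = 0.00201), Ctla4 (3.82, adjusted p = 0.00398), Il10 (2.87, adjusted p = 0.00537), Cxcr6 (2.81, adjusted p = 0.00773), Fgl2 (3.6, adjusted p = 0.00831) and Ccr8 (2.76, adjusted p = 0.00917), against 5.97% of all genes tested. Granzyme B, the checkpoint receptor CTLA-4, the cytokine IL-10 and the receptors CXCR6 and CCR8 are all known of tumor Treg cells, and FGL2 is a suppressive secreted protein. In the same WT contrast CD8 genes summed to 148.0 and 48.2 CPM in tumor against 24.3 and 30.7 CPM in spleen, and melanoma genes to 1958 and 1064 CPM against 7.63 and 9.27 CPM. In KO tumor 2, whose CD8 sum was 2220.2 CPM, Gzmb was at 4287 CPM and Cxcr6 at 1270.2 CPM, against 456.1 and 215.3 CPM in KO tumor 1. CD8 T cells, which the gate on CD4 was meant to leave out, also make these genes, and their part in the result was not tested. Ccr8 stood at 154.8 and 112.0 CPM in WT spleen, 94.4 and 90.5 CPM in KO spleen, 852.3 and 949.8 CPM in WT tumor, and 83.1 and 55.6 CPM in KO tumor. The WT tumor libraries stood far above the other 6, and the KO tumor libraries were the lowest of the 8. KO against WT in tumor, edgeR called 0 of the 22, with 14 at an unadjusted p under 0.05, against 1573 of the 15935 genes tested. DESeq2 called 10 lower, against 4.68% of all genes. The smallest edgeR p in the list belonged to Ccr8 (-3.70, edgeR adjusted p = 0.177, DESeq2 adjusted p = 1.9e-12), Tnfrsf4 (-2.98, edgeR adjusted p = 0.177, DESeq2 adjusted p = 3.7e-07) and Itgae (-2.52, edgeR adjusted p = 0.177, DESeq2 adjusted p = 5.3e-05). The list's median was -1.82, against 0.04 over all genes tested. The median thus lay on the same side as Maf, Gata3 and Il1rl1, and Foxp3 stood at 10.2 and 2.99 CPM in those KO libraries against 25.5 and 60.4 CPM in the WT ones.

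In spleen, 3 of these 22 genes were called by DESeq2 in KO against WT, all lower, against 0.416% of all genes. EdgeR called 0, with 5 at an unadjusted p under 0.05, against 489 of 16583 genes. Of the 22, 9 had a positive and 13 a negative log2 fold change. Both KO spleen libraries lay above both WT ones for 6, against 16.4% of the genes tested, and below them for 10, against 15.7%. Itgae and Ccr4 were among the 6. Itgae stood at 214.3 and 108.6 CPM in WT spleen and 312.4 and 342.1 CPM in KO spleen. Ccr4 stood at 158.7 and 95.8 CPM in WT spleen and 327.0 and 308.9 CPM in KO spleen. Il10 stood at 14.3 and 14.0 CPM in WT spleen and 0.773 and 0.937 CPM in KO spleen. Its groups were far apart, and the log2 fold change was -4.05 (edgeR adjusted p = 0.140, DESeq2 adjusted p = 5.6e-12). Gzmb differed by -4.77 (edgeR adjusted p = 0.190, DESeq2 adjusted p = 5.5e-16) and Klrg1 by -1.66 (edgeR adjusted p = 0.781, DESeq2 adjusted p = 0.020). These encode the cytokine IL-10, a cytotoxic protease, and a receptor of effector Treg cells. In the same contrast CD8 genes summed to 24.3 and 30.7 CPM in WT spleen and 15.03 and 17.5 CPM in KO spleen. NK genes summed to 89.0 and 666.6 CPM in WT spleen and 60.9 and 126.0 CPM in KO spleen. The part of these cells in the result was not tested. In KO cells, tumor against spleen, edgeR called Bhlhe40 higher (2.34, adjusted p = 0.0420), and Itgae (-3.87, adjusted p = 0.0374) and Ccr4 (-3.84, adjusted p = 0.0473) lower, against 1.35% of all genes tested. DESeq2 called 6 of the 22 higher there and 4 lower, against 19.7% of all genes. In the interaction edgeR called 0 of the 22, with 10 at an unadjusted p under 0.05, against 1399 of 17870 genes. DESeq2 called 7 lower and 1 higher, against 1.85% of all genes. The smallest p belonged to Ccr8 (-3.17), Itgae (-3.53) and Ccr4 (-3.61), each at an edgeR adjusted p of 0.177.

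BLIMP1 is known to repress genes in lymphocytes, and a list of 14 held genes of resting, follicular and B lineage cells and of cytokine and activation programs. EdgeR called 4 of the 13 tested lower in WT tumor than in WT spleen, Tcf7 (-4.07, adjusted p = 0.00305), Klf2 (-4.91, adjusted p = 0.00307), Id3 (-4.80, adjusted p = 0.00489) and S1pr1 (-1.95, adjusted p = 0.0450), and 2 higher, Tbx21 (3.0, adjusted p = 0.00967) and Ifng (2.43, adjusted p = 0.0135), against 5.97% of all genes tested. Tcf7 and Id3 encode factors of resting cells, and KLF2 drives S1pr1, the receptor for exit into the blood, while Tbx21 and Ifng belong to the type 1 helper program. Klf2 stood at 102.7 and 277.7 CPM in WT spleen, 154.9 and 195.4 CPM in KO spleen, 4.31 and 8.43 CPM in WT tumor, and 89.4 and 28.2 CPM in KO tumor. Tcf7 stood at 265.8 and 222.1 CPM in WT spleen, 370.8 and 307.2 CPM in KO spleen, 9.37 and 19.7 CPM in WT tumor, and 55.0 and 66.3 CPM in KO tumor. For both genes the WT tumor libraries were lowest, the KO tumor libraries came next, and the spleen libraries were highest. KO against WT in tumor, edgeR called 0 of the 13 tested, with 4 at an unadjusted p under 0.05, against 1573 of the 15935 genes tested. DESeq2 called 2 higher, Klf2 (3.20, edgeR adjusted p = 0.264, DESeq2 adjusted p = 0.00043) and Tcf7 (2.05, edgeR adjusted p = 0.264, DESeq2 adjusted p = 0.008), against 4.68% of all genes, with Myc next by p (-1.02). The list's median was 0.55, against 0.04 over all genes tested. In these KO libraries CD8 genes summed to 405.8 and 2220.2 CPM against 148.0 and 48.2 CPM in the WT ones, macrophage genes to 14327 and 1599 CPM against 2909.7 and 455.3 CPM. Treg identity genes summed to 796.1 and 1388.3 CPM against 6572 and 9144 CPM. Their part in the result was not tested. In KO cells, tumor against spleen, edgeR called S1pr1 (-3.35, adjusted p = 0.0366) and Tcf7 (-2.47, adjusted p = 0.0374) lower, against 1.35% of all genes tested. DESeq2 called 4 of the 13 tested higher there and 3 lower, against 19.7%. In spleen neither tool called any of the 14, with 0 at an unadjusted p under 0.05 in edgeR, against 489 of 16583 genes and 0.416% called by DESeq2. The smallest p there belonged to S1pr1 (0.71), Bcl6 (1.05) and Tcf7 (0.47). In the interaction edgeR called 0 of 14, with 3 at an unadjusted p under 0.05, against 1399 of 17870 genes. DESeq2 called Klf2 higher there (3.32, edgeR adjusted p = 0.364, DESeq2 adjusted p = 0.024), against 1.85% of all genes, with Tcf7 (1.58) and S1pr1 (-1.41) next by p.

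The genes whose levels followed those of Prdm1 most closely were ranked among 17869 genes by the root mean square difference of centred log2 CPM over the 8 libraries. Gbp6 came first at 0.261, with 88.2 and 33.7 CPM in WT spleen, 86.8 and 74.0 CPM in KO spleen, 132.7 and 231.9 CPM in WT tumor, and 120.4 and 128.0 CPM in KO tumor. Serpina3g followed at 0.277, Stat3 at 0.309, Tex2 at 0.320 and Tnfrsf1b at 0.332. Like Prdm1, each of the 5 was lowest in WT spleen 2 and higher in all 4 tumor libraries than in all 4 spleen libraries. Gbp6 encodes an interferon-induced GTPase, Stat3 a signal transducer of cytokine receptors, and Tnfrsf1b the TNF receptor TNFR2, which Treg cells carry. These genes were picked for their likeness to Prdm1, so no test of it is given.

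Promoter windows from RefSeq (GRCm38.p6), 250 bases before to 50 after a gene's start, were matched by symbol for 8 of the 10 genes, in 11 windows of 300 bases. Maf and Relb had no entry. Motifs were searched on both strands: AGNGAAAG of BLIMP1, held by 8.63% of 32851 windows, TGANTCA of AP-1, which BATF and JUN bind, held by 7.81%, and AGATAA of GATA factors, held by 11.2%. No window of the 8 genes held the BLIMP1 letters, which says only that they are not in these windows. The AP-1 letters were in the window of Prdm1 alone, and the GATA letters were in the window of Batf and in both windows of Il1rl1. The Prdm1 window (chr10:44458699-44458998, minus strand) and the Il1rl1 windows (chr1:40429320-40429619 and chr1:40439379-40439678, plus strand) are shown 5′ to 3′ as examples of windows that hold a match, for the gene that the floxed allele targets and for the receptor gene. The Batf window is not shown. Capitals mark the AP-1 match in Prdm1 at base 203 and the GATA matches in Il1rl1 at bases 34 and 148, the latter on the opposite strand, and a match is a description, not a site.
Prdm1 window: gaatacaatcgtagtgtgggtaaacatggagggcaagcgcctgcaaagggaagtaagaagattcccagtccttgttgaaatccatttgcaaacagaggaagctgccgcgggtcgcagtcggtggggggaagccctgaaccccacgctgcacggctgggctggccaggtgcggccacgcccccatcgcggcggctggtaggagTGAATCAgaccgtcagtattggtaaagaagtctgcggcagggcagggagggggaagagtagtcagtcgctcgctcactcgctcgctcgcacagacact
Il1rl1 window 1: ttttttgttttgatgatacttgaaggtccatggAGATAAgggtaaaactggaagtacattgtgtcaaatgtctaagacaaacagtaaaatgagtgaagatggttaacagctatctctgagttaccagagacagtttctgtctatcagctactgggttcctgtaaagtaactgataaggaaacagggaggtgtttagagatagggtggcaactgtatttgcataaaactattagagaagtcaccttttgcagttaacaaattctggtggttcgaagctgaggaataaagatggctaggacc
Il1rl1 window 2: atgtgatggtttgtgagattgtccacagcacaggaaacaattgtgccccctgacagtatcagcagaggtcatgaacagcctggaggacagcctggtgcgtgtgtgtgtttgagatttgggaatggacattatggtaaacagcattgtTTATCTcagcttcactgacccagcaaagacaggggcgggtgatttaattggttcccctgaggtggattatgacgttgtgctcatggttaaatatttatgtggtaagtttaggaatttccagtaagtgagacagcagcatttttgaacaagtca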

How the data were processed

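RNA from the 8 sorted Treg samples was read by ultra-low-input RNA-seq. Per the submitters' processing notes, the authors trimmed reads with Trimmomatic 0.36, aligned them with STAR 2.5.2b to GRCm38 and deposited raw gene counts made with featureCounts of Subread 1.5.2 from unique reads in exons. The strand setting is not stated. A deposited table of normalized counts was not used. From the counts, levels were computed as CPM with TMM over 8 libraries, per kilobase of exon where genes are compared. Each of 4 pairwise comparisons used its 4 libraries in an edgeR 4.0.16 quasi-likelihood fit (R 4.3.3, TMM, filterByExpr), and the interaction of genotype and tissue used 8. P-values were adjusted over all genes tested. Alternatives were DESeq2 1.42.0 Wald tests on the same or all libraries, edgeR over all 8 libraries, DESeq2's size factors, no filter, adjusted p alone, the replicate number as a block, and each library left out in turn. TMM and size factors moved the median of all genes by less than 0.1 on the log2 scale. The 10 genes and the lists were chosen with earlier results of these data known. Genes named by rule are the 10 and the 5 nearest to Prdm1 in profile. For each pathway list and comparison they are the genes that edgeR called (at most 6, by adjusted p) or else the 3 with its smallest p. For each marker list they are its most abundant gene and its genes at 0. The marker lists so described were Treg identity, T, CD4, CD8, NK and plasma cells, macrophages, dendritic cells, neutrophils, mast cells with ILC2, melanoma cells and fibroblasts. Also named, outside these rules, are Foxp3, Cd3e, Tnfrsf18, Tyrobp, Csf1r, C1qb, Cd8b1, Pmel, Il4, Batf2, Fosl1, Bach1, Batf3 and Il33. The sum of 1 further marker list is not reported here.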

Additional observations from a re-analysis of the deposited data

Results flagged for a closer look

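Gata3 stood out because the difference between libraries labelled KO and WT was not the same in tumor and spleen. DESeq2 over all 8 libraries put the tumor difference less the spleen difference at -2.60 on the log2 scale (adjusted p = 0.0247), and edgeR put it at -2.61 (adjusted p = 0.322), so the tools fall on different sides of the threshold. Without each library in turn, edgeR gave from -3.15 (without KO tumor 2) to -1.93 (without WT tumor 2). Gata3 was at 35.9 and 69.0 CPM in KO tumor and 213.2 and 476.9 CPM in WT tumor. Treg identity genes, low in the same KO tumor libraries, summed there to 796.1 and 1388.3 CPM against 6572 and 9144 CPM in WT tumor, and their part in the result was not tested. The same interaction was not particular to Gata3. The 7 Treg identity genes had a median of -2.55, all 7 negative. EdgeR called 0 of them and 0% of 17870 genes, with 7 of them and 1399 of all genes at an unadjusted p under 0.05, and DESeq2 called 4 lower, against 1.85% of 16585 genes. DESeq2 called 7 of the 22 tissue effector Treg genes lower and 1 higher, and Ctla4 and Tnfrsf18 are in both lists.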

How the results depend on the processing

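The 10 genes were refitted under each alternative of each comparison. KO against WT in tumor, 105 of 110 refitted values kept their direction, in spleen 102 of 110, tumor against spleen 99 of 110 in WT and 109 of 110 in KO cells, and in the interaction 126 of 130. In the order KO against WT in spleen, tumor against spleen in KO cells, KO against WT in tumor, tumor against spleen in WT cells, and interaction, the counts of genes called against 0, 228, 0, 981 and 0 were 75, 3813, 761, 1805 and 307 with DESeq2, and 167, 3183, 1072, 1922 and 752 with no filter. For the first 4 they were 50, 3272, 930 and 2166 with DESeq2 over all 8 libraries and 0, 1743, 135 and 671 with edgeR over all 8. Of the 10 genes, against 0, 0, 0, 1 and 0, DESeq2 called 0, 7, 3, 2 and 1, no filter gave 0, 6, 3, 2 and 3, DESeq2 over all 8 gave 0, 7, 3 and 2, and edgeR over all 8 gave 0, 4, 0 and 0. The causes were not tested. Size factors (0, 226, 0, 975 and 0 genes) and adjusted p alone (0, 228, 0, 981 and 0 genes) stayed close.

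The labels do not say that equal replicate numbers mark the same mice, and across genes the differences between replicates of pairs of groups correlated by -0.220 to 0.234, with genes not independent replicates. With the replicate number as a block, genes called were 101, 192, 728, 1463 and 0, and of the 10 genes 0, 0, 3, 2 and 0. Those were, KO against WT in tumor, Gata3 (-2.68, edgeR adjusted p = 0.00890), Il1rl1 (-2.77, edgeR adjusted p = 0.0195) and Maf (-2.52, edgeR adjusted p = 0.0468), and tumor against spleen in WT cells Prdm1 (2.10, edgeR adjusted p = 0.0241) beside Rel. Pparg turned to -0.41 in KO against WT tumor with this block.

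Maf, near 0 in tumor against spleen of WT cells, turned to 0.056 with DESeq2, 0.034 with DESeq2 over all 8 libraries, 0.022 with size factors and 0.055 with no filter. Leaving out each library in turn, where a lone library is assumed to vary like the other group, genes called ranged from 21 to 3972 KO against WT in spleen, 0 to 4958 tumor against spleen in KO cells and 213 to 1401 in WT cells, and of the 10 genes from 0 to 2, 0 to 7 and 0 to 2. The counts were 0 throughout KO against WT in tumor and in the interaction. Ranges that crossed 0 were Irf4 -0.37 to 0.16, Rel -0.81 to 0.94, Pparg -1.85 to 0.98 and Relb -0.56 to 0.013 (KO against WT in tumor), Nfil3 -0.47 to 0.34, Relb -0.32 to 0.31, Gata3 -0.25 to 0.11, Rel -0.60 to 0.20, Prdm1 -0.20 to 1.22 and Maf -0.37 to 0.23 (KO against WT in spleen), Relb -0.37 to 0.18, Maf -0.46 to 0.41, Il1rl1 -0.13 to 0.77 and Gata3 -0.12 to 1.02 (tumor against spleen in WT cells), Irf4 -0.052 to 0.41 (tumor against spleen in KO cells) and Relb -0.50 to 0.10, Rel -0.54 to 1.24 and Pparg -1.09 to 1.78 (in the interaction). With 2 libraries a group, spread between replicates beyond counting error limits these values more than depth.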
